A study of Homo sapiens with 58 samples.

Results

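The 9 chemokine genes CXCL1, CXCL2, CXCL3, CXCL8, CXCL10, CXCL11, CCL2, CCL5 and CCL20 were followed across every line, medium, ligand and inhibitor of a HaCaT keratinocyte series, as 9 of the 19775 genes measured. For each gene the probe set with a single gene symbol and the highest mean over all arrays was used, and the 6 other probe sets of these genes are given beside it. RNA was measured on 58 Affymetrix U133 Plus 2.0 arrays in 18 conditions. HaCaT is an immortalised human epidermal keratinocyte line. The parental line was compared with HaCaT-vector (a mock-transfected control), HaCaT-EGFR (forced expression of the receptor EGFR), HaCaT-p65 (forced expression of RELA/p65, the transactivating NF-kB subunit) and HaCaT-HRAS (forced expression of HRAS-VAL12D, an activated mutant). Cells grown in serum were measured on 5 arrays of HaCaT-EGFR and on 3 of every other line. Without serum there were 4 starved arrays of HaCaT-vector, 7 of HaCaT-EGFR and 3 of HaCaT-p65. EGF was given to HaCaT-vector on 4 arrays and to HaCaT-EGFR on 7 arrays, and TNF to HaCaT-vector on 3 arrays and to HaCaT-p65 on 5 arrays. Gefitinib, an inhibitor of the EGFR kinase, was added to EGF on 2 HaCaT-EGFR arrays and to serum on another 2. LY294002, a PI3K inhibitor, and the compound labelled U1026 were each added to EGF on 1 array of HaCaT-EGFR and 1 of HaCaT-vector. Ligand exposures lasted 4 h or 8 h. The labels do not say whether arrays of a group came from separate cultures, so the p-values measure only the spread between these arrays, which may be technical. Whether the transfected lines were clones or pools was not given in the sources used here.

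Chemokines are small secreted proteins that draw leukocytes along a gradient by binding G-protein-coupled receptors. CXCL1, CXCL2, CXCL3 and CXCL8 (interleukin-8) act through CXCR2, CXCL8 also through CXCR1, and recruit neutrophils. CXCL10 and CXCL11 are interferon-inducible ligands of CXCR3 and recruit activated T cells. CCL2 recruits monocytes through CCR2, CCL5 (RANTES) recruits T cells and monocytes, and CCL20 recruits dendritic cells and T cells through CCR6. Keratinocytes are a main source of several of these in inflamed skin, and NF-kB is a classical activator of their genes.

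Promoter sequence is shown first, because forced p65 and TNF both bear on NF-kB. RefSeq promoters (GRCh38.p14, 250 bases before to 50 bases after the start) were listed for 7 of the genes, CCL20 on chromosome 2 and the CXC genes on chromosome 4. CCL2 and CCL5 were not among them. Letters of 4 kinds were searched on both strands: the longer NF-kB type, which is GGG and TTCC with any 3 bases between them, the shorter NF-kB type GGAATTTCC, which can overlap the longer one, the AP-1 type TGANTCA, and the interferon-response type, which is GAAA repeated after any 2 bases. The longer NF-kB type was found in 6 of the 7, against 6.47% of 27305 promoters of the same length, and was missing from CXCL8. GGAATTTCC was found in 6 of the 7, against 0.472% of all, and was missing from CCL20. TGANTCA stood in CXCL8 and CXCL11 (7.76% of all promoters) and the interferon-response type in CXCL10 (3.65% of all). A match is a description of letters and not evidence of binding. The stretches that follow run 5′ to 3′ on the gene's own strand, all of it before the start, with 25 bases on either side of the NF-kB type letters, which are in capitals. They lie at chr4:73869289-73869349 (CXCL1, plus strand), chr4:74099238-74099298 (CXCL2, minus strand), chr4:74038733-74038793 (CXCL3, minus strand), chr4:73740453-73740511 (CXCL8, plus strand), chr4:76023640-76023699 (CXCL10, minus strand), chr4:76036112-76036171 (CXCL11, minus strand) and chr2:227813738-227813797 (CCL20, plus strand).
CXCL1: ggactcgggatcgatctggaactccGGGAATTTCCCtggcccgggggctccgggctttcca
CXCL2: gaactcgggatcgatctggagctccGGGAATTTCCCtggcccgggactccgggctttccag
CXCL3: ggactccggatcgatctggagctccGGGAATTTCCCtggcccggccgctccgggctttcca
CXCL8: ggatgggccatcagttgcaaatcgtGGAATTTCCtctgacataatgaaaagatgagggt
CXCL10: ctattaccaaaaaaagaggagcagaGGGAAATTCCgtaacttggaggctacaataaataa
CXCL11: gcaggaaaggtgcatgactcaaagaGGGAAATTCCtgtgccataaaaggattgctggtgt
CCL20: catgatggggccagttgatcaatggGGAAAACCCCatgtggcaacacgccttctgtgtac
CXCL1, CXCL2 and CXCL3 carried the same capital letters, and over the first 36 bases of these stretches each pair shared 34. CXCL10 and CXCL11 shared a different set of capitals, and CCL20 matched on the opposite strand.

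The arrays behaved as keratinocytes: the 8 keratinocyte markers measured of 10 had condition means of 8.63 to 13.33 on the log2 scale, while none of 7 leukocyte markers had a mean over all arrays of 6 or more, and condition means of the pan-leukocyte marker PTPRC lay between 3.75 and 4.29. Of the fibroblast, endothelial and melanocyte markers, 1 of 7, 0 of 5 and 1 of 4 reached 6. In such bulk RNA, fewer cells of a kind and less RNA per cell cannot be told apart. HRAS was 2.41 higher in HaCaT-HRAS than in HaCaT-vector (adjusted p = 3.05e-23), RELA 0.27 higher in HaCaT-p65 (adjusted p = 0.256) and the EGFR probe set used 0.02 lower in HaCaT-EGFR (adjusted p = 0.993). Other EGFR probe sets ranged from 0.42 lower to 1.00 higher. The arrays came from 6 processing dates, and the authors had subtracted each date's effect. On date 1 lay all the untimed serum arrays and on date 6 all the inhibitor arrays, and the study's own sample sheet gives a different RNA extraction for date 6. One HaCaT-p65 TNF array, number 5 of its group, is labelled as TNF-treated but described in that sheet as a 4 h control. For all 9 chemokines it had the lowest value of the 5 TNF arrays. It was kept under its GEO label, and the chemokine changes with TNF in HaCaT-p65 are also given without it.

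**Figure D1:**
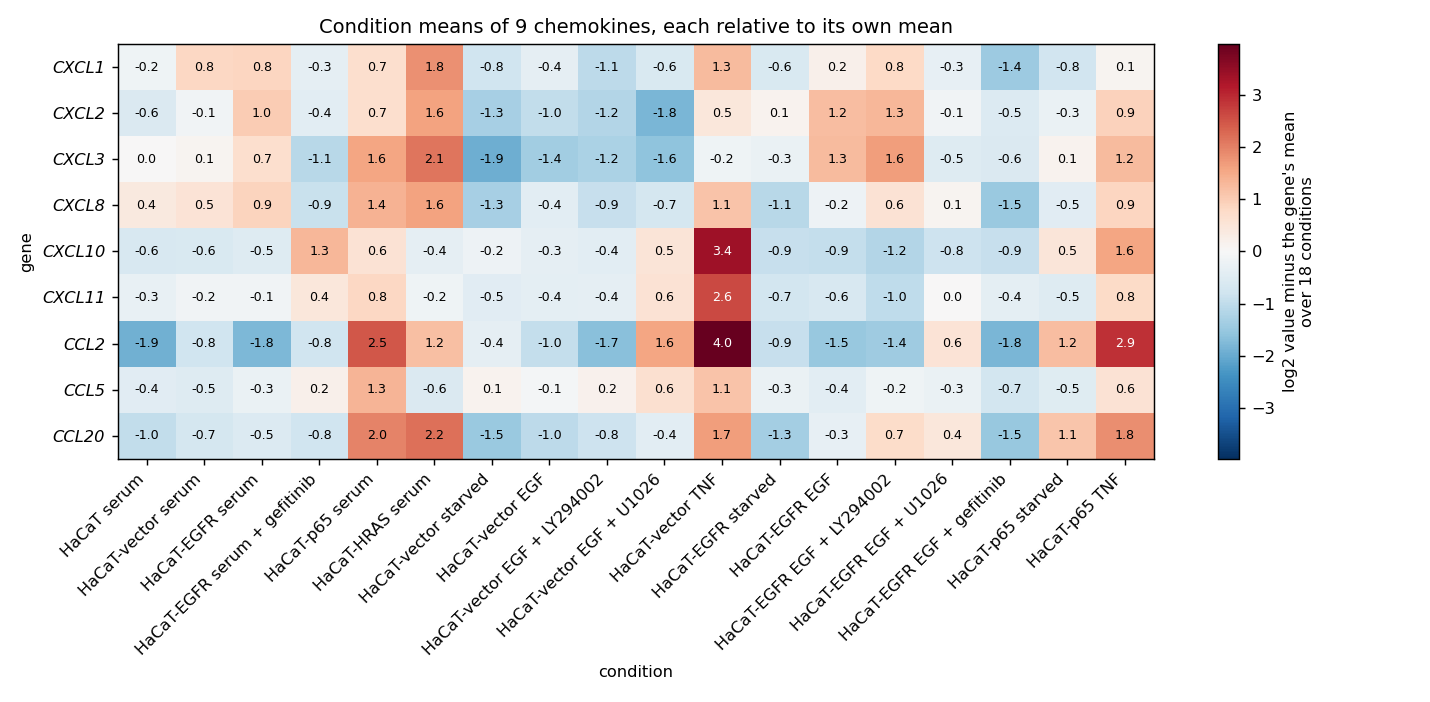
Condition means of the 9 chemokines (rows) in the 18 conditions (columns), as log2 value minus that gene's mean over the conditions. Dark red cells mark the conditions with the highest means, led by CCL2 and CXCL10 in HaCaT-vector with TNF.

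Each gene had its own ranking of conditions. The mean of CXCL1, CXCL2, CXCL3, CXCL8 and CCL20 was highest in HaCaT-HRAS in serum, at 10.68, 9.15, 9.89, 11.90 and 8.45. CXCL10, CXCL11 and CCL2 were highest in HaCaT-vector with TNF, at 8.52, 6.86 and 10.97, and CCL5 in HaCaT-p65 in serum, at 7.19. For every gene except CXCL10 and CXCL11 the arrays of the highest condition overlapped those of the next. CXCL10 and CXCL11 with TNF in HaCaT-vector did not overlap the next condition, whose means were 6.72 (HaCaT-p65 with TNF, the doubtful array included) and 5.05 (HaCaT-p65 in serum). The lowest means were in HaCaT-vector or HaCaT-EGFR without serum for all but CCL2, which was lowest in parental HaCaT in serum at 5.1. CXCL1, CXCL8, CCL5 and CCL20 were all lowest with EGF and gefitinib together, at 7.42, 8.84, 5.13 and 4.77. Over the 58 arrays the closest pairs were CXCL2 with CXCL3 (Pearson r = 0.918), CXCL10 with CXCL11 (r = 0.888), CXCL1 with CXCL8 (r = 0.871) and CCL2 with CCL20 (r = 0.804). CXCL2 and CCL5 were unrelated (r = -0.01). These are descriptions over arrays that share conditions and dates. CXCL1, CXCL2 and CXCL3 also have near-identical coding sequences, and the CXCL2 and CXCL8 probe sets used are of a type that can bind related transcripts, so their separate levels are uncertain.

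Activated HRAS was accompanied by higher transcripts of CXCL1, CXCL2, CXCL3, CXCL8, CCL2 and CCL20, and by no call for CXCL10, CXCL11 or CCL5. In serum 6 of the 9 passed, all higher in HaCaT-HRAS than in HaCaT-vector, where 18.2% of all genes passed. The median change of the 9 was 1.06 on the log2 scale and that of all genes -0.04. CCL20, the CCR6 ligand, read 7.97, 8.98 and 8.41 in HaCaT-HRAS and 5.90, 5.83 and 5.0 in HaCaT-vector. These arrays did not overlap, and the difference was 7.34-fold, or 2.88 on the log2 scale (SE 0.33, adjusted p = 5.37e-09). CXCL3 was 2.01 higher (SE 0.30, adjusted p = 1.19e-06) and CXCL2 1.73 higher (SE 0.29, adjusted p = 1.51e-05). CCL2 read 8.18, 8.47 and 7.95 against 7.11, 6.16 and 5.37, a change of 1.99 (SE 0.52, adjusted p = 0.00437). CXCL8 read 12.07, 11.98 and 11.66 against 10.99, 11.07 and 10.48, a change of 1.05 with adjusted p = 0.0107, and CXCL1 rose by 1.00 with adjusted p = 0.0105. CXCL10, CXCL11 and CCL5 changed by 0.24, -0.01 and -0.07, with 95% intervals of -0.82 to 1.31, -0.73 to 0.72 and -0.49 to 0.36. CXCL10 and CXCL11 were low, at means of 4.779 and 4.076 in HaCaT-HRAS and 4.535 and 4.083 in HaCaT-vector. These lay below every array median (4.983 to 5.237), so a fall could be hard to see. CCL20, CXCL2 and CXCL3 passed with any single array left out. CCL2, CXCL8 and CXCL1 missed the threshold without HaCaT-vector replicate 3 (1.56, 0.87 and 0.89, with adjusted p = 0.0596, 0.084 and 0.0607), and CXCL1 also without HaCaT-HRAS replicate 1 (0.89, adjusted p = 0.0555). The HaCaT-HRAS arrays also stood apart in the endothelial markers, whose mean over the 5 was 5.14 to 5.47 there and 4.11 to 4.75 on all other arrays, through CDH5 at 8.66. In the 8 keratinocyte markers they were lowest, with array means of 10.66 to 10.85 against 11.5 to 11.71 in HaCaT-vector in serum and 10.87 or more on all other arrays. The part of either in the chemokine result was not tested.

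With forced p65 in serum, CCL2, CCL20, CCL5 and CXCL3 were higher. These 4 of the 9 passed, all higher in HaCaT-p65 than in HaCaT-vector, against 7.18% of all genes, and the median change was 1.17 against -0.00402 for all genes. CCL2 read 9.66, 9.61 and 9.14 in HaCaT-p65, 9.54-fold above HaCaT-vector (3.25 on the log2 scale, SE 0.52, adjusted p = 1.95e-05). CCL20 read 8.08, 8.31 and 8.33, 2.66 above HaCaT-vector (SE 0.33, adjusted p = 1.44e-07). CCL5 read 7.32, 7.24 and 7.01 against 5.50, 5.14 and 5.39 in HaCaT-vector, and rose by 1.85 (SE 0.21, adjusted p = 2.78e-08). The groups did not overlap for CCL2, CCL20, CCL5 and CXCL3, nor for CXCL2, CXCL8, CXCL10 and CXCL11, which did not pass. The share of all genes without overlap was not counted for this comparison. CXCL3, at 9.45, 9.41 and 9.19, was 1.46 higher (SE 0.30, adjusted p = 0.000601). CXCL2, CXCL8, CXCL10 and CXCL11 differed by 0.79, 0.85, 1.17 and 0.96 but did not pass (adjusted p = 0.11, 0.0977, 0.241 and 0.11). CXCL1 differed by -0.17, with a 95% interval of -0.75 to 0.42. The 4 calls held with each array left out in turn.

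With forced EGFR in serum CXCL2 was higher. It alone of the 9 passed, where 7.87% of all genes did, and the median change was 0.16 against -0.00129 for all genes. CXCL2 read 8.79, 8.81 and 8.06 on the date shared with HaCaT-vector and 8.52 and 8.58 on date 6, against 7.58, 7.74 and 6.93 in HaCaT-vector. None of these arrays overlapped, and the change was 1.14 (SE 0.29, adjusted p = 0.00832). It missed the threshold without HaCaT-EGFR replicate 1 (1.02, adjusted p = 0.0559), HaCaT-EGFR replicate 2 (1.01, adjusted p = 0.0619) or HaCaT-vector replicate 3 (0.89, adjusted p = 0.102). CCL2 differed by -0.995 without passing (95% interval -2.05 to 0.06, adjusted p = 0.363), with -1.52 to -0.55 when single arrays were left out. Between HaCaT-vector and parental HaCaT, 1 of the 9 passed and 2.87% of all genes did, with medians of 0.15 and 0.00517. That gene was CXCL1, at 9.86, 9.73 and 9.47 in HaCaT-vector and 9.16, 8.93 and 8.00 in HaCaT, a change of 0.99 (SE 0.29, adjusted p = 0.0489). It missed the threshold when any of 5 of the 6 arrays was left out (0.64 to 1.11, adjusted p = 0.0544 to 0.373). The 5 were HaCaT replicates 2 and 3 and HaCaT-vector replicates 1, 2 and 3.

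**Figure D2:**
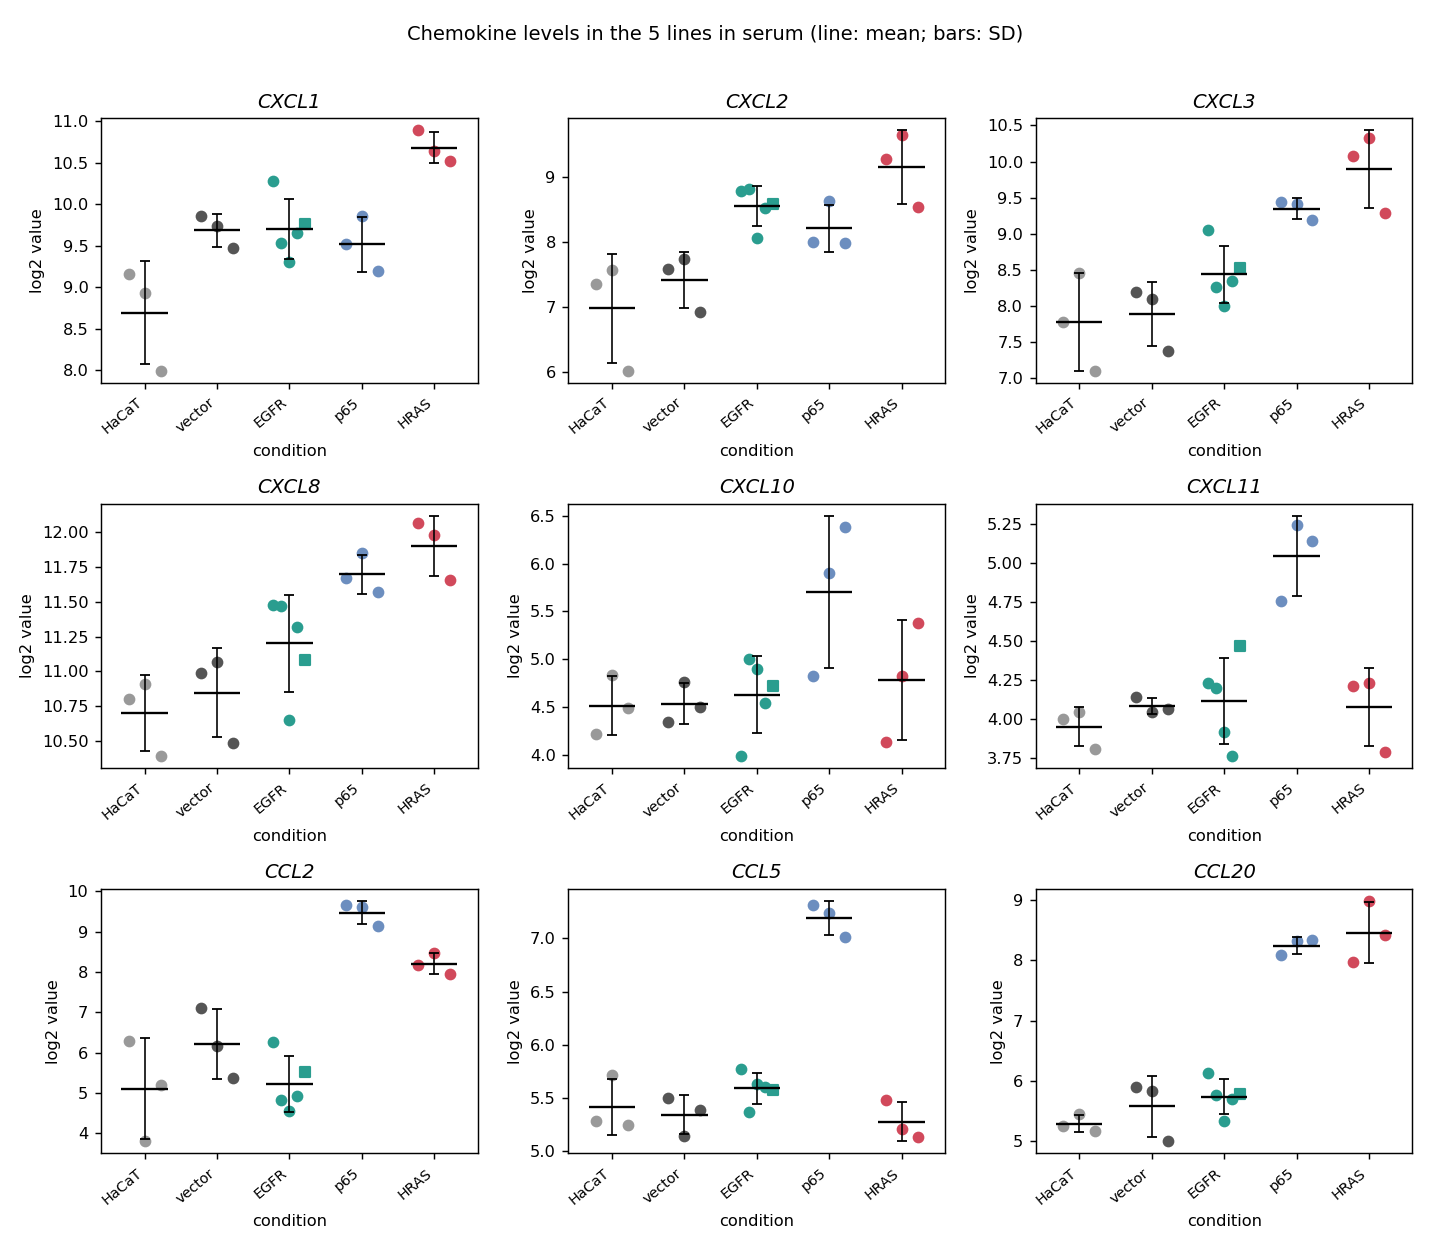
Log2 values of the 9 chemokines in the 5 lines in serum, 1 point an array (squares: 8 h arrays), with the mean as a line and the SD as bars. CCL20 in HaCaT-p65 and HaCaT-HRAS lies near 8, above the arrays of the other lines, and CCL5 is high in HaCaT-p65.

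With TNF in HaCaT-vector all 9 of these chemokines passed, all higher with TNF than starved, where 0.905% of all genes passed. The arrays of the groups did not overlap for any of the 9, as was the case for 21.5% of all genes. The median change was 2.44 against -0.01 for all genes. CCL2 read 6.50, 6.41, 6.68 and 6.95 starved and 10.57, 11.09 and 11.26 with TNF, a 20.2-fold change (4.34 on the log2 scale, SE 0.52, adjusted p = 9.6e-07). The CXCR3 ligands CXCL10 and CXCL11 followed. CXCL10 read 4.78, 5.14, 4.97 and 4.82 starved and 8.96, 8.48 and 8.11 with TNF, a 12.1-fold change (3.59, SE 0.53, adjusted p = 2.81e-05). CXCL11 read 3.53, 3.96, 3.93 and 3.73 starved and 7.37, 6.63 and 6.59 with TNF, a change of 3.08 (SE 0.36, adjusted p = 4.76e-07). CCL20 went from 5.07, 4.67, 4.65 and 4.81 to 7.86, 7.82 and 8.13, an 8.81-fold change (3.14, SE 0.33, adjusted p = 4.02e-08). CXCL1, CXCL2, CXCL3 and CXCL8 rose too. CXCL8 read 9.30, 9.09, 9.03 and 8.54 starved and 11.17, 11.81 and 11.32 with TNF, a change of 2.44 (SE 0.31, adjusted p = 1.97e-06). CXCL1, CXCL3 and CXCL2 rose by 2.06, 1.78 and 1.76 (adjusted p = 1.35e-05, 0.000237 and 0.000241). CCL5 read 6.12, 6.07, 5.82 and 5.92 starved and 7.01, 6.96 and 7.01 with TNF, the smallest change of the 9 at 1.01 (SE 0.21, adjusted p = 0.00466). Both dates that held both groups gave the same direction for every one of the 9: CCL2 differed by 4.33 on date 4 and 4.71 on date 5, and CCL5 by 0.86 and 1.06. Without HaCaT-vector TNF replicate 3, the only TNF array of date 5, CXCL2 (1.5, adjusted p = 0.0697) and CCL5 (0.99, adjusted p = 0.133) missed the threshold.

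TNF was also given to HaCaT-p65. There 5 of the 9 passed, all higher than starved, where 2.03% of all genes passed, and the median change was 1.11 against -0.05 for all genes. The labelled TNF arrays are given in group order, with the doubtful array last. CXCL8 read 9.91, 10.11 and 9.53 starved and 11.90, 11.24, 11.11, 11.36 and 10.25 with TNF, a change of 1.32 (SE 0.28, adjusted p = 0.0106). CXCL11 read 3.90, 3.60 and 3.64 starved and 5.53, 5.97, 4.57, 5.23 and 3.67 with TNF, a change of 1.28 (SE 0.33, adjusted p = 0.0327). The last array sat among the starved arrays for CXCL11. CXCL2, CXCL3 and CCL5 rose by 1.16, 1.11 and 1.04 (adjusted p = 0.0174, 0.0245 and 0.003). The groups did not overlap for these genes or for CXCL8. The share of all genes without overlap was not counted for TNF in HaCaT-p65. CCL2 read 8.50, 8.31 and 7.90 starved and 10.75, 10.09, 9.71, 11.03 and 7.98 with TNF, a change of 1.68 with adjusted p = 0.0513. CXCL10 read 6.06, 6.17 and 4.63 starved and 7.42, 7.71, 6.43, 6.87 and 5.17 with TNF, a change of 1.10 with adjusted p = 0.209.

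Without the doubtful array 7 of the 9 passed. CCL2 then changed by 2.11 (adjusted p = 0.00242), CXCL8 by 1.53 (adjusted p = 0.00041), CXCL11 by 1.58 (adjusted p = 0.000844) and CXCL1 by 1.04 (adjusted p = 0.0184). CXCL10 changed by 1.45 (adjusted p = 0.0575) and CCL20 by 0.90 (adjusted p = 0.0749). With all 5 TNF arrays, other single arrays also decided calls. CCL5 alone passed with each array left out. CXCL2 and CXCL8 missed the threshold without HaCaT-p65 starved replicate 1, starved replicate 3 or TNF replicate 1 (adjusted p = 0.0702 to 0.0872 and 0.0746 to 0.0807). CXCL3 also missed it without TNF replicate 2 (0.0595 to 0.127 over the 4), and CXCL11 also without TNF replicate 2 or starved replicate 2 (0.0792 to 0.158 over the 5). The changes themselves stayed between 0.88 and 1.37 in these.

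The difference of the TNF responses was tested directly. CCL20 alone of the 9 passed, with a response of HaCaT-p65 minus that of HaCaT-vector of -2.40 (SE 0.44, adjusted p = 0.0326), where 0.0101% of all genes passed. The median difference was -1.17 against -0.05 for all genes, and 6 of the 9 had an unadjusted p under 0.05, as did 1516 of all 19775 genes. CCL20 read 7.62, 7.49 and 7.00 in starved HaCaT-p65 and 8.38, 8.05, 8.43, 8.27 and 7.40 with TNF, so its starved arrays lay between those of starved HaCaT-vector (4.65 to 5.07) and HaCaT-vector with TNF (7.82 to 8.13). The call held without the doubtful array (-2.24, adjusted p = 0.0361). It was lost when any of 10 of the 15 arrays was left out, with adjusted p = 0.0536 to 1 and differences of -2.60 to -2.22. The 10 were HaCaT-p65 starved replicates 1 and 2, HaCaT-p65 TNF replicate 2, HaCaT-vector TNF replicates 1, 2 and 3 and HaCaT-vector starved replicates 1, 2, 3 and 4. The other differences ran from -2.66 for CCL2 (adjusted p = 0.328) to 0.04 for CCL5 (adjusted p = 0.988, 95% interval -0.54 to 0.61). The HaCaT-vector arrays were from dates 4 to 6 and the HaCaT-p65 arrays from dates 2 and 3. All these HaCaT-vector arrays were at 4 h, while HaCaT-p65 had 1 starved and 1 TNF array at 8 h. The difference of responses therefore also carries a difference in exposure times. With 4 h arrays only, the call of CCL20 was lost.

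**Figure D3:**
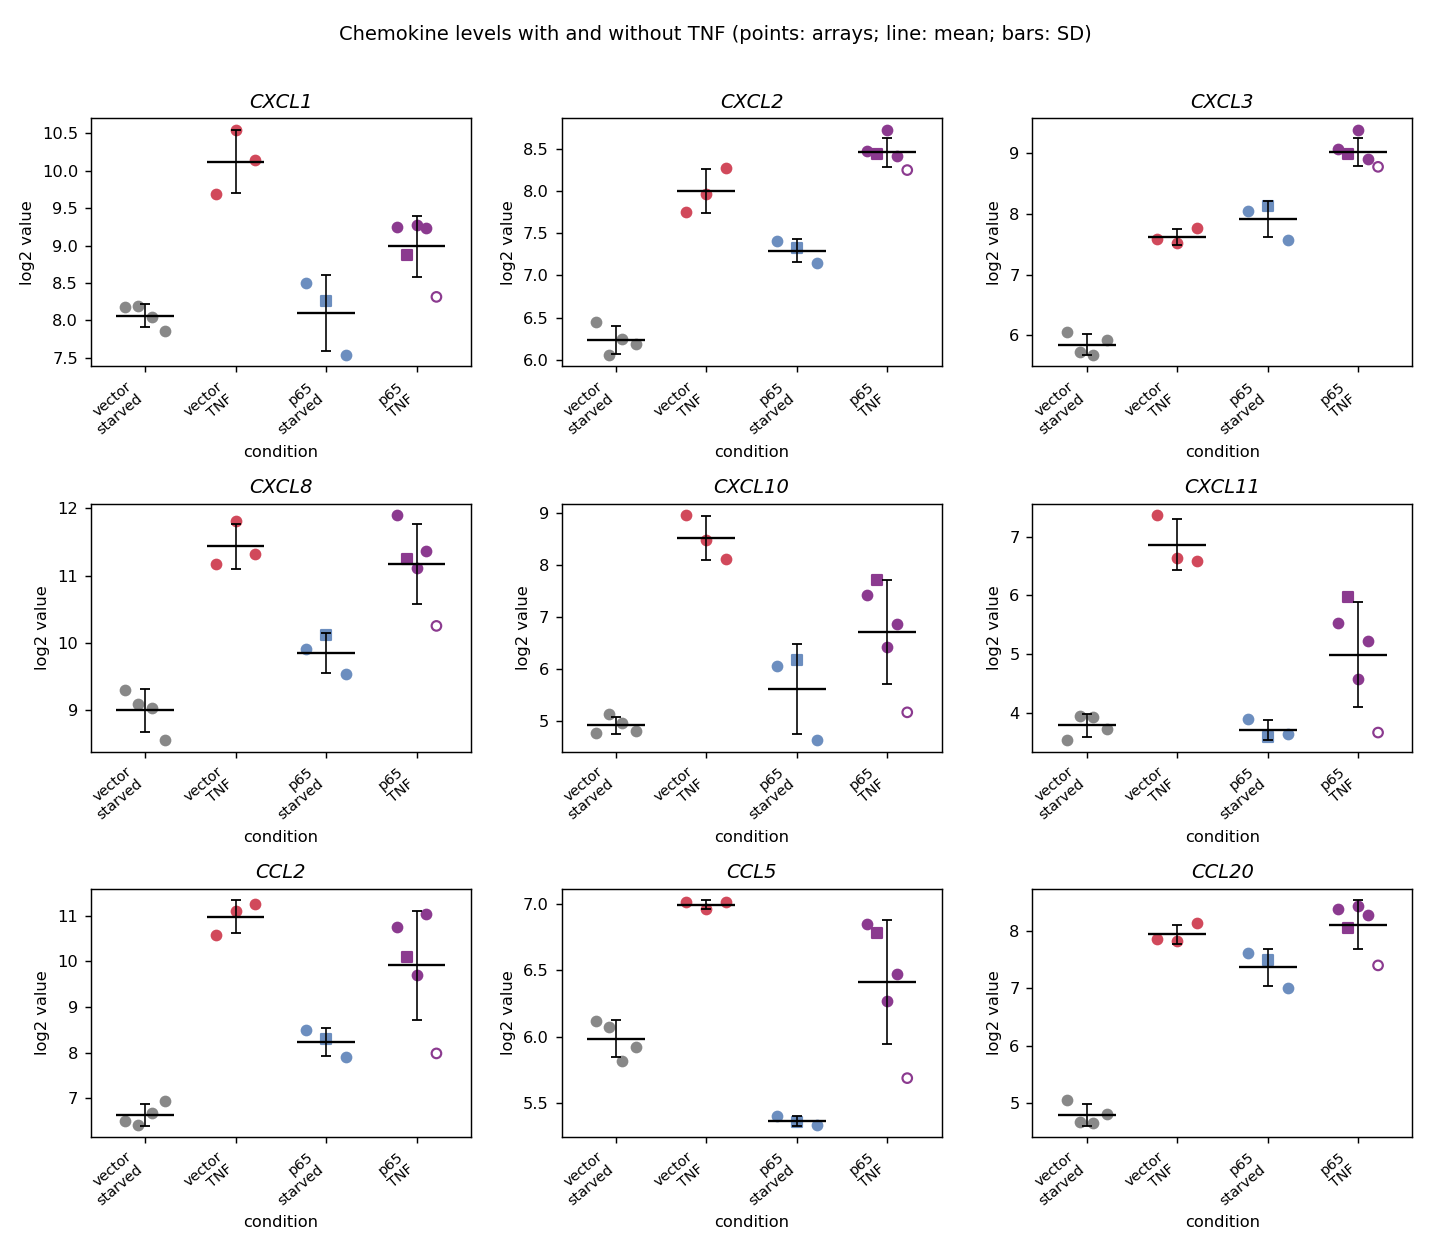
Log2 values of the 9 chemokines in HaCaT-vector and HaCaT-p65, starved and with TNF, 1 point an array (squares: 8 h), with the mean as a line and the SD as bars. The open point is the HaCaT-p65 TNF array described elsewhere as a control, and in HaCaT-vector the TNF arrays lie above the starved arrays in all 9 panels.

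With EGF in HaCaT-EGFR, CXCL1, CXCL2, CXCL3, CXCL8 and CCL20 rose. These 5 of the 9 passed, all higher than starved, where 8.8% of all genes passed. The median change was 0.80 against -0.01 for all genes. CXCL3 ranged from 6.84 to 8.41 starved (median 7.47) and from 8.67 to 9.45 with EGF (median 9.04), a 2.89-fold change (1.53, SE 0.19, adjusted p = 9.64e-07). CXCL2 ranged from 6.90 to 8.38 starved (median 7.82) and from 8.52 to 8.95 with EGF (median 8.78), a change of 1.07 (SE 0.19, adjusted p = 0.000244). The CXCL2 and CXCL3 groups did not overlap, and the share of all genes without overlap was not counted for this comparison. CCL20 ranged from 4.51 to 5.59 starved (median 4.88) and from 5.35 to 6.76 with EGF (median 5.84), a change of 1.01 (SE 0.21, adjusted p = 0.00159). CXCL8 rose by 0.90 (SE 0.20, adjusted p = 0.00252) and CXCL1 by 0.80 (SE 0.19, adjusted p = 0.00432). For CCL20, CXCL8 and CXCL1 the groups overlapped, through starved replicate 4, whose values of 5.59, 10.03 and 8.97 were the highest of the starved arrays. CXCL10, CXCL11, CCL2 and CCL5 changed by -0.04, 0.09, -0.59 and -0.13 and did not pass, with 95% intervals of -0.73 to 0.66, -0.39 to 0.56, -1.28 to 0.11 and -0.41 to 0.15. Starved means of CXCL10 and CXCL11 were already low, at 4.235 and 3.518, so a fall could be hard to see. The 5 calls held with each array left out in turn. On the separate dates the change of CXCL3 was 1.64, 0.96 and 1.84 and that of CXCL1 0.60, 0.37 and 1.22 (dates 2, 3 and 6). With date 6 left out, an alternative chosen after seeing the data, CXCL2 and CXCL3 passed and CCL20, CXCL8 and CXCL1 did not (0.89, 0.69 and 0.49, with adjusted p = 0.0899, 0.156 and 0.37).

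The vector line showed no call with EGF by limma: 0 of the 9 passed, while 1.01% of all genes did, and 2 of the 9 had an unadjusted p under 0.05, as did 1842 of all 19775 genes. The median change was 0.35 against -0.01 for all genes. CXCL8 read 9.75, 9.63, 9.87 and 10.35 with EGF and 9.30, 9.09, 9.03 and 8.54 starved, a change of 0.91 (adjusted p = 0.115), and CXCL3 changed by 0.57 (adjusted p = 0.483). The EGF response did not differ between the lines at the threshold for any of the 9, nor for any gene (0% passed), with an unadjusted p under 0.05 for CXCL2 and CXCL3 and for 343 genes in all. The difference of responses was 0.96 for CXCL3 (95% interval 0.30 to 1.62, adjusted p = 1) and -0.00430 for CXCL8 (-0.69 to 0.68). All these HaCaT-vector arrays were at 4 h, while 2 starved and 2 EGF arrays of HaCaT-EGFR were at 8 h. The difference of EGF responses therefore also carries a difference in exposure times. Set against each other in HaCaT-vector, TNF gave higher values than EGF for all 9, each with adjusted p under the threshold, where 1.41% of all genes passed. The median difference was 1.62 against 0.00550 for all genes, from 4.93 for CCL2 (adjusted p = 1.65e-08) and 3.72 for CXCL10 to 1.22 for both CCL5 and CXCL3. This comparison and that of TNF with starved arrays share the same TNF arrays. Without HaCaT-vector TNF replicate 3, CXCL2 (1.2, adjusted p = 0.108) and CXCL3 (1.10, adjusted p = 0.223) missed the threshold, and CXCL3 did so without TNF replicate 1 (1.24, adjusted p = 0.0555) or EGF replicate 1 (1.09, adjusted p = 0.102).

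With gefitinib added to EGF in HaCaT-EGFR, CXCL1, CXCL2, CXCL3 and CXCL8 were lower. These 4 of the 9 passed and none was higher, where 1.81% of all genes passed. The median change was -1.17 against -0.02 for all genes. CXCL3 read 7.03 at 4 h and 7.38 at 8 h with EGF and gefitinib, below every EGF array, and fell by 1.85 on the log2 scale (SE 0.31, adjusted p = 0.000618). CXCL2 read 7.00 and 7.03 and fell by 1.74 (SE 0.31, adjusted p = 0.00113). CXCL1 read 7.34 and 7.49, below the lowest EGF array (8.74) and the lowest starved array (7.77), and fell by 1.64 (SE 0.30, adjusted p = 0.0018). CXCL8 read 8.96 and 8.71 and fell by 1.28 (SE 0.32, adjusted p = 0.0252). CCL20 read 4.88 and 4.65, below all EGF arrays, but its change of -1.17 did not pass (adjusted p = 0.067). Without EGF replicate 7 it passed (-1.35, adjusted p = 0.0338). CXCL10, CXCL11, CCL2 and CCL5 changed by 0.02, 0.24, -0.32 and -0.32 and did not pass. The means of CXCL10 and CXCL11 with EGF alone were low, at 4.198 and 3.605. On date 6, which held both groups, CXCL1, CXCL2, CXCL3 and CXCL8 differed by -1.85, -1.83, -2.001 and -1.43. Without gefitinib replicate 1, CXCL1, CXCL2, CXCL3 and CXCL8 all missed the threshold (-1.57, -1.73, -1.67 and -1.41, with adjusted p = 0.0971, 0.0622, 0.0808 and 0.189). Without gefitinib replicate 2, CXCL3 passed and CXCL1, CXCL2 and CXCL8 did not (-1.72, -1.76 and -1.16, with adjusted p = 0.0592, 0.0592 and 0.459). CXCL8 also missed it without EGF replicate 5 (-1.11, adjusted p = 0.08) or EGF replicate 6 (-1.23, adjusted p = 0.0559).

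With serum, gefitinib left 3 of the 9 lower, where 1.79% of all genes passed, and the median change was -0.27 against -0.01 for all genes. The serum arrays of date 6 read 11.32 and 11.08 for CXCL8 and the gefitinib arrays 9.58 and 9.25, a fall by 1.79 (SE 0.38, adjusted p = 0.0054). CXCL3 fell by 1.75 (SE 0.36, adjusted p = 0.00477) and CXCL2 by 1.42 (SE 0.36, adjusted p = 0.0269), while CXCL1 changed by -1.19 without passing (adjusted p = 0.0743). CXCL10 pointed the other way. It read 6.69 and 6.24 with gefitinib, above all 5 serum arrays (3.985 to 5.002), but the change of 1.84 (95% interval 0.53 to 3.14) did not pass after adjustment (adjusted p = 0.157). CXCL11, CCL2 and CCL5 changed by 0.57, 0.99 and 0.47 and did not pass, and CCL20 by -0.27. Leaving out either gefitinib array ended the call of CXCL2 (adjusted p = 0.132 and 0.268 without replicates 1 and 2) and of CXCL3 (0.0608 and 0.0661). The call of CXCL8 was lost without gefitinib replicate 2 (-1.62, adjusted p = 0.174) or serum replicate 4 (-1.67, adjusted p = 0.118). CXCL2 also missed it without serum replicate 4 (-1.44, adjusted p = 0.201) or serum replicate 5 (-1.39, adjusted p = 0.0985).

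The compound labelled U1026 moved CCL2 and CXCL2 in opposite directions. Each inhibitor had 1 array a line, so the mean over both lines was tested and the lone arrays were assumed to vary like the other groups. With U1026 and EGF, 1 of the 9 passed higher and 1 lower, where 3.02% of all genes passed, and the median change was 0.42 against 0.00503 for all genes. CCL2 read 7.55 in HaCaT-EGFR and 8.56 in HaCaT-vector, against EGF arrays of 4.88 to 6.14 and 5.74 to 6.33. Both lay above every EGF array of their line, and the mean change was 4.89-fold (2.29, SE 0.54, adjusted p = 0.0113). CXCL2 read 7.41 and 5.73, below every EGF array of its line, and fell by 1.10 (SE 0.30, adjusted p = 0.0351). CXCL3 read 7.25 in HaCaT-EGFR, where EGF arrays began at 8.67, and 6.19 in HaCaT-vector, where they began at 6.15, and its mean change of -1.01 did not pass (adjusted p = 0.0622). CXCL8 changed by 0.00288 (95% interval -0.64 to 0.65). Without HaCaT-vector EGF replicate 4, CCL2 (2.02, adjusted p = 0.137) and CXCL2 (-1.06, adjusted p = 0.193) missed the threshold. LY294002 gave no call by limma: 0 of the 9 passed, 0 had an unadjusted p under 0.05 (1977 of all genes did), and 0.693% of all genes passed. The median change was -0.05 against 0.00306 for all genes, and the largest was 0.63 for CCL20 (95% interval -0.06 to 1.32, adjusted p = 0.575). CXCL8 with LY294002 read 10.90 in HaCaT-EGFR, above the highest EGF array of 10.68, and 9.40 in HaCaT-vector, below the lowest of 9.63.

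**Figure D4:**
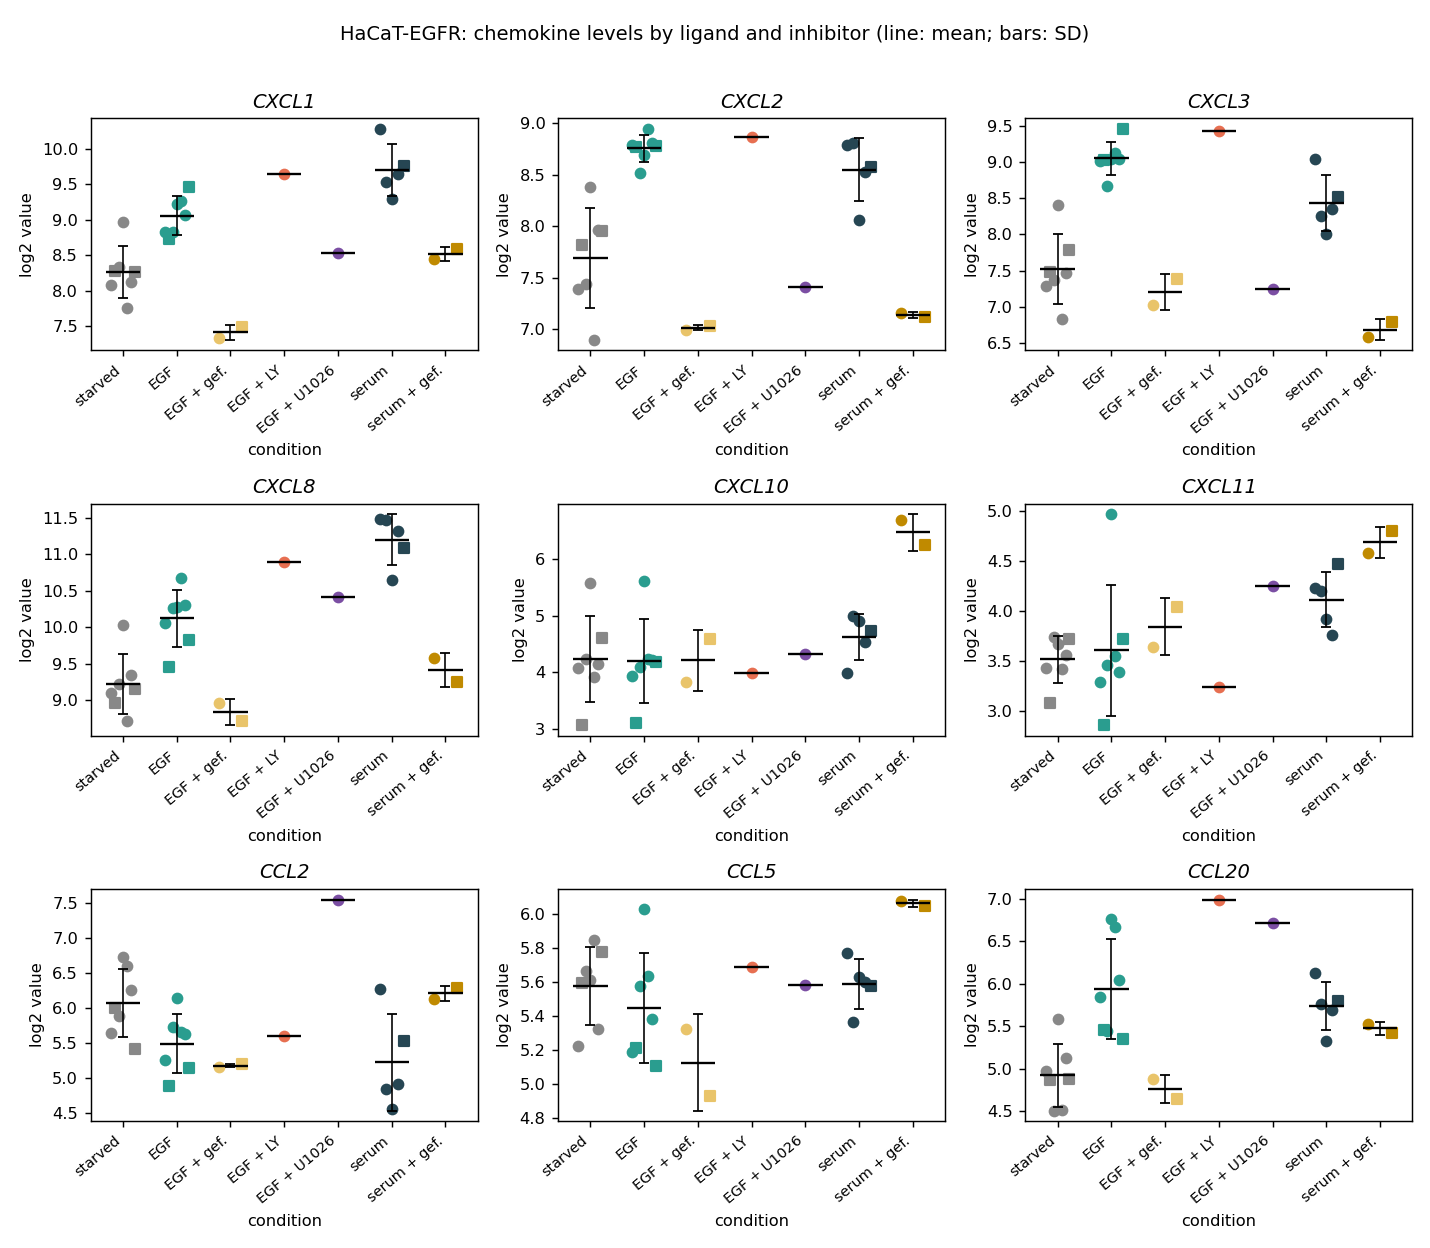
Log2 values of the 9 chemokines in HaCaT-EGFR by condition, 1 point an array (squares: 8 h), with the mean as a line and the SD as bars where there are 2 or more arrays. CXCL1, CXCL2, CXCL3 and CXCL8 are lower with gefitinib than with EGF or serum alone, while CXCL10 is highest with serum and gefitinib.

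Serum and line effects could be compared with starved cells only across processing dates in part. In HaCaT-EGFR 2 of the 9 passed, both higher in serum, where 3.25% of all genes passed, with a median of 0.82 against -0.000829 for all genes. CXCL8 ranged from 10.65 to 11.48 in serum (5 arrays, median 11.32) and from 8.72 to 10.03 starved, a change of 1.98 (SE 0.32, adjusted p = 0.000277) without overlap of the groups. CXCL1 rose by 1.45 (SE 0.30, adjusted p = 0.0051). On date 6 alone, which held both groups, the differences were 2.13 and 1.66. CXCL1 missed the threshold without serum replicate 4 (1.5, adjusted p = 0.132), and CXCL3 passed without starved replicate 4 (1.00, adjusted p = 0.0324; 0.91 and adjusted p = 0.0976 with it). In HaCaT-vector 1 of the 9 passed, CXCL3 at 2.04 higher in serum (SE 0.48, adjusted p = 0.0267), where 0.976% of all genes passed, and the median was 0.78 against 0.00112. It missed the threshold without serum replicate 1 (1.89, adjusted p = 0.0647), serum replicate 2 (1.94, adjusted p = 0.0657) or starved replicate 4 (2.18, adjusted p = 0.256). In HaCaT-p65 1 of the 9 passed, where 0.703% of all genes did, with a median of 1.33 against -0.01. It was CCL5, at 7.01 to 7.32 in serum and 5.41, 5.36 and 5.34 starved, a change of 1.82 (SE 0.34, adjusted p = 0.00385). Serum and starved arrays of HaCaT-vector and HaCaT-p65 share no date, so medium and date cannot be told apart within those lines and the values rest on the arrays of other groups that link the dates.

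Among starved cells, forced EGFR and forced p65 were each accompanied by higher CXCL3. In HaCaT-EGFR 2 of the 9 passed against 7.89% of all genes, both higher than in HaCaT-vector, with a median of 0.12 against -0.004. CXCL3 was 1.68 higher (SE 0.34, adjusted p = 0.000589) and CXCL2 1.46 higher (SE 0.34, adjusted p = 0.00283). On date 6, with 3 arrays against 1, they differed by 1.44 and 1.42. Without that one HaCaT-vector array, starved replicate 4, neither passed (1.81 and 1.37, with adjusted p = 0.0548 and 0.232). In HaCaT-p65 2 of the 9 passed against 5.3% of all genes, both higher, with a median of 0.86 against 0.01. CCL20 was 2.57 higher (SE 0.45, adjusted p = 0.000222) and CXCL3 2.07 higher (SE 0.41, adjusted p = 0.000872). CCL20 read 7.62, 7.49 and 7.00 against 5.07, 4.67, 4.65 and 4.81 in HaCaT-vector. CCL2 was 1.60 higher without passing (adjusted p = 0.224). These lines shared no date when starved, so line and date cannot be told apart directly.

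**Figure D5:**
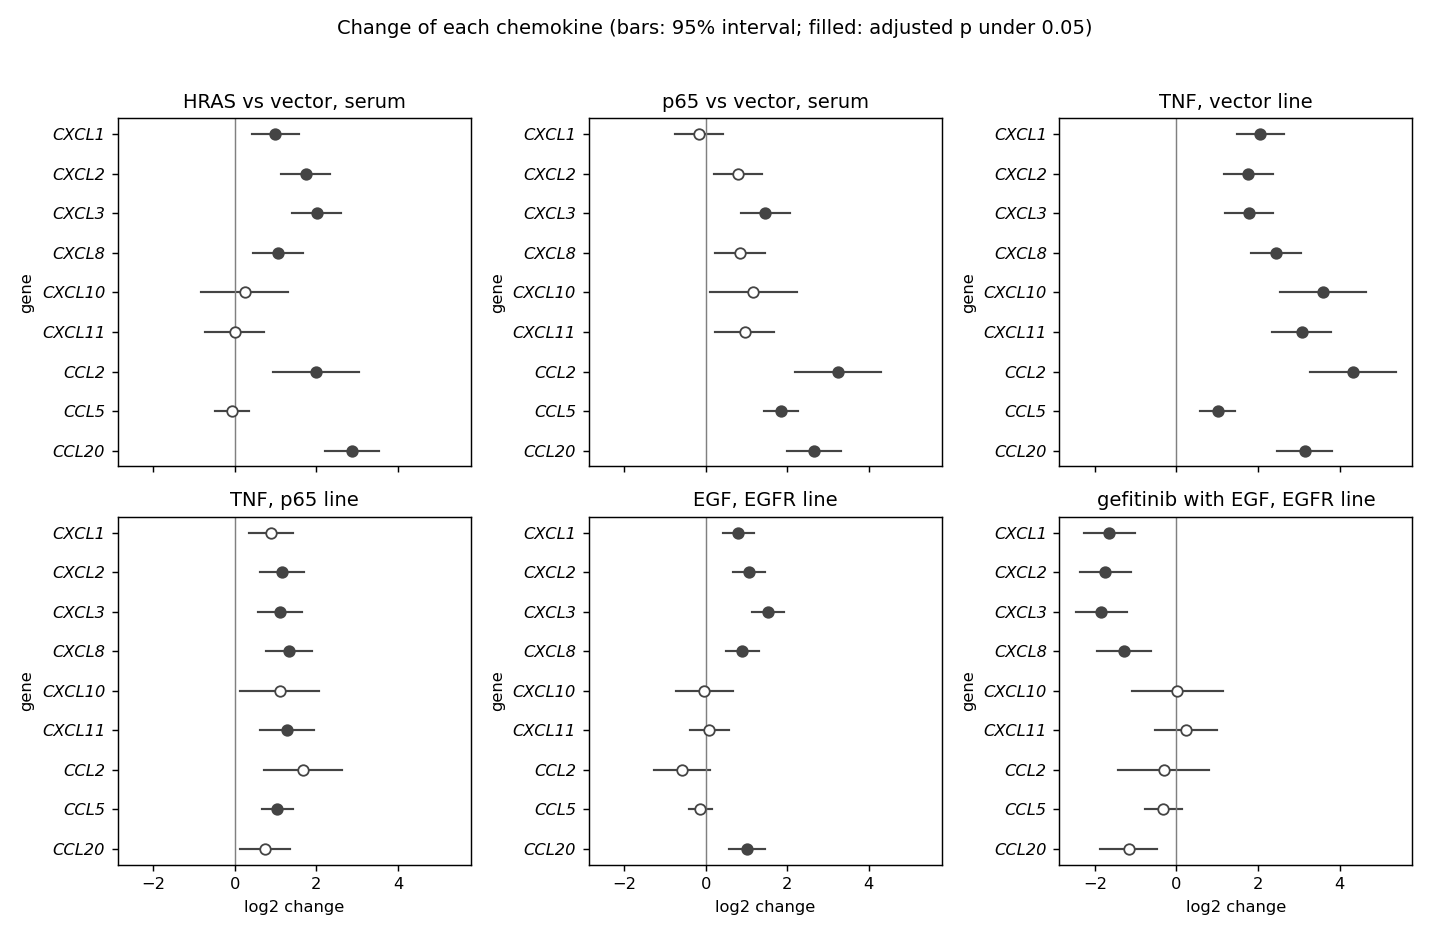
Log2 change of each chemokine in 6 comparisons, with 95% intervals as bars and filled points for adjusted p under 0.05. All 9 points are filled for TNF in the vector line, while with EGF in the EGFR line CXCL10, CXCL11, CCL2 and CCL5 lie at or below 0.1 and are open.

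The other probe sets of these genes differed in how they followed the ones used. Over the 58 arrays r with the one used was 0.939 for CXCL8, 0.883 for CXCL11, 0.929 and 0.726 for CCL5 and 0.426 and 0.377 for CXCL2. The additional CXCL8 probe set rose by 2.32 with TNF and the additional CXCL11 probe set by 2.02 in HaCaT-vector (limma, adjusted p over all probe sets = 2.42e-05 and 0.000242). Both additional CCL5 probe sets rose there, by 1.43 and 1.07, and in HaCaT-p65 in serum, by 2.05 and 0.70. CXCL11's additional probe set passed in HaCaT-p65 in serum (1.10, adjusted p = 0.0404), where the one used did not. With EGF and gefitinib the additional CXCL8 probe set changed by -1.05 and did not pass (adjusted p = 0.172), nor did it pass in HaCaT-HRAS in serum (0.81, adjusted p = 0.109). With TNF in HaCaT-p65 the additional CXCL11 probe set (0.56, adjusted p = 0.370) and both additional CCL5 probe sets (0.79 and 0.28, adjusted p = 0.0852 and 0.491) did not pass, while the ones used did. The difference of TNF responses was -0.64 and -0.79 for the additional CCL5 probe sets and 0.035 for the one used. None of these passed by limma (adjusted p = 0.809 and 0.721 for the additional ones). The 2 additional CXCL2 probe sets passed in none of the 20 comparisons. Their means over all arrays were 3.82 and 3.09.

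Related genes were counted beside these chemokines from 4 lists. Of all genes, 0.905% passed with TNF in HaCaT-vector, 2.03% with TNF in HaCaT-p65 and 8.8% with EGF in HaCaT-EGFR. In serum 18.2% passed in HaCaT-HRAS, 7.18% in HaCaT-p65 and 7.87% in HaCaT-EGFR, each against HaCaT-vector. With U1026 and EGF 3.02% passed. Of 30 other chemokines measured of 34, TNF in HaCaT-vector raised 2, the CXCR2 ligand CXCL6 by 1.52 and the CXCR3 ligand CXCL9 by 0.88 (adjusted p = 0.0365 and 0.00931), and their median change was 0.10. In HaCaT-HRAS 4 of the 30 were higher and 1 lower, a share no larger than the 18.2% of all genes, among them CCL22 by 2.47, CCL28 by 1.70 and PPBP, another CXCR2 ligand, by 1.59. EGF in HaCaT-EGFR raised 1 of the 30, PPBP by 1.16, a share no larger than the 8.8% of all genes. Against HaCaT-vector in serum, CCL26 (-1.32) and CCL28 (-0.58) were lower in HaCaT-p65 and CXCL5 (-2.03) in HaCaT-EGFR, and none was higher. Among starved cells, CXCL6 (-1.775) and CCL28 (-1.22) were lower in HaCaT-p65, where 5.3% of all genes passed. CXCL16 (-0.50) was lower in starved HaCaT-EGFR, where 7.89% passed, and none was higher in either. With gefitinib none of the 30 passed. Of 20 chemokine receptors measured of 22, CXCR4 was 3.05 higher in HaCaT-HRAS and the scavenging receptor ACKR3 changed by -3.26 (adjusted p = 6.62e-08 and 7.22e-08). With 1 of the 20 higher and 1 lower in HaCaT-HRAS, the share was no larger than the 18.2% of all genes. ACKR3 also changed by -1.9 in HaCaT-p65 in serum, -2.32 in starved HaCaT-p65 and -1.56 in starved HaCaT-EGFR, each against HaCaT-vector. It changed by -1.595 with serum and -1.05 with EGF in HaCaT-EGFR, and by -1.44 with TNF in HaCaT-p65, the doubtful array included. In HaCaT-EGFR it was higher with gefitinib, by 1.89 when added to EGF and 1.86 when added to serum. Of 18 NF-kB regulators measured of 20, TNF in HaCaT-vector raised 8 and lowered none, with a median of 0.71. They included TNF itself (2.88), the feedback inhibitor TNFAIP3 (2.65) and TRAF1 (2.27). In HaCaT-p65 with TNF, the doubtful array included, 5 rose, with TNFAIP3 at 1.51, and in HaCaT-p65 in serum 5 were higher. HaCaT-HRAS in serum had 3 higher and 3 lower, with a median of -0.16. Of 13 interferon-stimulated genes measured of 14, TNF in HaCaT-vector raised 8 (median 1.21), among them MX1 by 1.81 and RSAD2 by 1.73. In serum HaCaT-HRAS had 4 lower and none higher, RSAD2 falling by 1.95. HaCaT-p65 in serum had 4 higher and 1 lower, and HaCaT-EGFR in serum 3 higher and none lower. Starved HaCaT-p65 had 2 lower than starved HaCaT-vector and none higher, where 5.3% of all genes passed. There RSAD2 changed by -3.35 and GBP2 by -2.38, between lines that shared no date when starved. EGF in HaCaT-EGFR lowered 3, IFIT2, IFIT1 and IRF1. U1026 with EGF raised 3, IFIT2 by 1.70, IFIT3 by 1.25 and IFIT1 by 1.11.

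The genes whose levels ran most like each chemokine over the 58 arrays differed between the groups. CXCL8 ran most like TNFAIP3 (r = 0.879), PLAU (0.82) and ADAM8 (0.799), and CXCL1 most like CFLAR (0.765), BCL2A1 (0.755) and CD274 (0.721). CXCL3 ran most like TMEM170A (0.837), TLNRD1 (0.833) and ATP2B1 (0.806), and CXCL2 most like TIMP1 (0.757), ATP2B1 (0.746) and TRMT61A (0.738). CXCL10 ran most like XAF1 (0.861), TAP1 (0.828) and IFIT5 (0.824), CXCL11 most like IFIH1 (0.852), TAP1 (0.818) and IRF1 (0.815), and CCL5 most like XAF1 (0.849), GBP4 (0.809) and IFIH1 (0.801). CCL2 ran most like TNF (0.912), MARCKSL1 (0.853) and LTB (0.832), and CCL20 most like TNF (0.848), TNIP1 (0.838) and RIPK2 (0.831). These correlations describe arrays that share conditions and dates.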

How the data were processed

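RNA of HaCaT lines was hybridised to Affymetrix U133 Plus 2.0 arrays. The deposited table holds log2 values that the authors made by frozen robust multiarray analysis and then adjusted by subtracting the processing-date coefficients of a limma fit. A refit gave date coefficients of at most 8.333e-09, so the dates had been removed. Of 54675 probe sets, 41097 had a single gene symbol, 1801 several and 11777 none, and 41043 matched RefSeq by Entrez ID with 0 symbols updated. Per gene the probe set with the highest mean over the 58 arrays was kept (19775 genes). Array medians were 4.983 to 5.237, and the number of arrays limits the precision.

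Groups came from the GEO labels. All 58 arrays entered 1 limma fit (limma 3.58.1, R 4.3.3) with 18 conditions and 6 dates, leaving 35 residual degrees of freedom. Each of 20 comparisons was a contrast tested two-sided with the moderated test, its p-values adjusted by Benjamini-Hochberg across the 19775 genes and called under 0.05. The deposited log2 values of a group were averaged over its arrays. The fit was also run on simulated data with independent noise for every array, a setting without pairing or shared cultures. Alternatives were no date term, centring of arrays, a filter on low values, all probe sets, only the arrays compared, a replicate block, 4 h arrays only and leaving out single arrays. In serum, deviations of samples with the same number correlated positively for HaCaT-HRAS with HaCaT-vector (0.527, 0.239 and 0.191). They also did for HaCaT-EGFR (0.529, 0.223 and 0.216) and HaCaT-p65 (0.584, 0.084 and 0.131) with HaCaT-vector. For parental HaCaT with HaCaT-vector the values were 0.2265, -0.1932 and -0.02962. Replicate 3 of HaCaT-HRAS, HaCaT-EGFR and HaCaT-p65 reached 0.2473, 0.2275 and 0.4336 with HaCaT-vector replicate 2. The correlations therefore do not settle whether the numbers pair the samples.

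The 9 chemokines and the lists of related genes were chosen with earlier results of these data known. All 9 chemokines are reported, and from each list at most 3 genes past the threshold per comparison, by size of change. Pearson's r over all 58 arrays was the measure of likeness. Promoters came from RefSeq (GRCh38.p14).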

Additional observations from a re-analysis of the deposited data

Results flagged for a closer look

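Among 54 combinations of a chemokine and a group of 4 to 10 arrays, 3 had an array far from the others, and chance alone marks about 1 in 20 such groups. CCL5 read 5.541 in HaCaT-vector with EGF replicate 1, where the other 3 arrays read 5.83 to 5.88. CXCL10 read 4.392 on the same array, against 4.91 to 4.95 on the others. CXCL11 read 4.963 in HaCaT-EGFR with EGF replicate 4, against 2.86 to 3.72 on the other 6 arrays. The TNF response of CCL20 differed between the lines, at -2.402 for HaCaT-p65 minus HaCaT-vector by limma's test of the difference (adjusted p = 0.0326), and the cause was not tested. Exposure times also differed in part between these lines.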

How the results depend on the processing

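No called chemokine value changed sign. Of 902 alternative values of the 58 called ones, 795 stayed past the threshold and 107 did not. The counts that follow are of the 9 chemokines past the threshold. Without the date term, serum against starved gave 5 in HaCaT-EGFR, 6 in HaCaT-vector and 7 in HaCaT-p65, starved HaCaT-p65 against HaCaT-vector 6, EGF in HaCaT-vector 1 and gefitinib with serum 5. With centred arrays the difference of TNF responses gave 0. With only genes whose highest condition mean was at least 6, serum against starved gave 2 in HaCaT-vector and 2 in HaCaT-p65. Over all probe sets, HaCaT-vector against HaCaT gave 0, the difference of TNF responses 0 and U1026 1. With only the arrays compared, HaCaT-vector against HaCaT gave 0, serum against starved 1 in HaCaT-EGFR, 7 in HaCaT-vector and 8 in HaCaT-p65, starved HaCaT-EGFR 0 and starved HaCaT-p65 6 against HaCaT-vector, TNF in HaCaT-p65 0, the difference of TNF responses 0 and gefitinib with serum 0. With 4 h arrays only, TNF in HaCaT-p65 gave 1, the difference of TNF responses 0, gefitinib with EGF 0, gefitinib with serum 0 and U1026 1. Without the doubtful HaCaT-p65 array, serum against starved in HaCaT-p65 gave 2 and TNF in HaCaT-p65 7. With date 6 left out, chosen after seeing the data, HaCaT-vector against HaCaT gave 0, EGF in HaCaT-EGFR 2, TNF in HaCaT-p65 3 and the difference of TNF responses 0. The causes of these moves were not tested.

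With the replicate number as a block in place of the date, serum against starved in HaCaT-EGFR gave 4 calls. In serum the block gave 6 calls for HaCaT-HRAS and 1 for HaCaT-EGFR, as without it.

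Leaving out 1 array at a time gave 3 to 6 calls for HaCaT-HRAS, 0 to 1 for HaCaT-EGFR and 0 to 1 for HaCaT-vector against HaCaT, all in serum. Serum against starved gave 1 to 3 in HaCaT-EGFR and 0 to 1 in HaCaT-vector, and starved HaCaT-EGFR against HaCaT-vector 0 to 2. TNF gave 7 to 9 in HaCaT-vector, 1 to 7 in HaCaT-p65, 0 to 1 for the difference and 7 to 9 against EGF. Gefitinib gave 0 to 5 with EGF and 0 to 3 with serum, and U1026 0 to 2. HaCaT-p65 against HaCaT-vector stayed at 4 in serum and 2 starved, and EGF in HaCaT-EGFR at 5.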
